A study of Arabidopsis thaliana with 3 samples.

Results

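Family 17 glycoside hydrolases of plants are mostly beta-1,3-glucanases, enzymes that cut beta-1,3-glucans such as callose. Callose is laid down by callose synthases around developing pollen, at plasmodesmata (the channels between neighbouring cells) and in new cell plates, and is removed again by glucanases of this family. In anthers, callose encases the meiocytes and tetrads until glucanase secreted by the tapetum, the inner anther layer that feeds the pollen, dissolves it and frees the microspores. Several other members sit at plasmodesmata, where less callose means wider channels.

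The genes described here are the rows of the authors' deposited comparison table whose description holds the plural words glycosyl hydrolases family 17, with AT4G14080 (A6) left out. Descriptions that name beta-1,3-glucanase were sought as well, but the table drops commas and 0 rows matched that text. They are 22 of the 19777 genes of the table. All 22 carry the family 17 domain (InterPro) in the TAIR10.1 annotation, and all 22 carry the carbohydrate-binding X8 domain as well. The annotation gives the family 17 domain to 51 loci in all, of which 33 are in the table. Besides the 22 and A6, 10 measured loci fall outside the rule. Among them, AT3G61810 and AT5G42720 are described as a glycosyl hydrolase family 17 protein, in the singular, which the rule's plural wording missed. Both were called and are given under the closing observations. A further 18 loci, among them the neighbouring genes BG1, BG2 (PR2, a pathogenesis-related gene) and BG3, were not analysed here. Among the measured genes the rule's wording separates those with an X8 domain from those without one. The 22 therefore stand for the measured X8-bearing genes other than A6 and not for the whole family.

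RNA came from inflorescence meristems and flower buds of Arabidopsis thaliana. The transgenic plants were 3 independent sep1 sep2 sep3 triple mutant lines that express SEP3Δtet, with 1 library per line, and they were compared by the authors with the sep1 sep2 sep3 triple mutant. SEP3 is a MADS-domain transcription factor of floral organ identity, and the title describes the expressed form as the splice variant SEP3.3. Per the labels, the oldest buds of line 1 had reached stages 10 to 11, those of line 2 stages 10 to 12 and those of line 3 stages 10 to 13. The sources used here give neither the transgene's promoter nor how many triple mutant libraries were sequenced. They also do not give the bud stages of the triple mutant, so genotype and bud stage cannot be told apart. The table holds 1 value per gene and none per library, so neither a level per line, nor its spread, nor any sequencing depth can be stated. An approximate standard error was computed here for each gene as the size of the log2 fold change divided by the square root of the deposited F statistic, and is called the implied SE. The name of the comparison puts the SEP3Δtet lines first, so a positive value is read as higher in them. SEP3 itself had a value of 2.27 (implied SE 0.24) in the authors' deposited table, higher in the lines that carry the transgene.

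Most of the 22 genes encode a short motif of the family's active site. The search was for glutamate, any residue, glycine, tryptophan or tyrosine, and proline in a row, around the glutamate known as a catalytic residue of the family. This motif was found in 19 of the 22 proteins. Other residues of the active site were not searched for, so the motif does not show an intact site. The coding sequences of 30 bases below (RefSeq, TAIR10.1, coding strand, 5′ to 3′) show this site in the 2 genes that were higher, in the 1 that was lower, in AT3G07320, the member closest to AT3G23770, and in the 3 genes without the full motif. Capitals mark the 5 codons of the motif.
AT3G23770 (chr3:8566456-8566485, plus strand): gcaatctctGAAACCGGGTGGCCTaatgac
AT3G07320 (chr3:2333035-2333064, minus strand): tgggtcgcgGAAACGGGTTGGCCCaataac
AT4G26830 (chr4:13495584-13495613, minus strand): atggtgacgGAAACAGGGTGGCCTtccgtt
AT1G11820 (chr1:3992227-3992256, minus strand): cttgtgactGAGAGTGGCTGGCCTtcgaaa
AT4G34480 (chr4:16482221-16482250, minus strand): gtggtggcgGAAACAGGTTGGGCGtcaaga
AT5G58480 (chr5:23641839-23641868, minus strand): gttgtgtcaAAGATCGGTTGGCCTacagat
AT5G67460 (chr5:26922541-26922570, minus strand): ttagtcaacCTCAGCAGCAAATTCacaacc
The 4 genes listed first hold the whole motif. AT4G34480 keeps the glutamate codon and lacks the proline codon, AT5G58480 lacks the glutamate codon, and AT5G67460 has none of the motif's fixed codons at the aligned position.

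Of the 22 genes, 2 were higher in the SEP3Δtet lines, 1 was lower and 19 did not pass the test, at an adjusted p of 0.05 by the authors' edgeR test. The higher genes were AT4G26830 and AT3G23770, with log2 fold changes of 3.53 and 3.30 in the authors' deposited table, and the lower one was AT1G11820, with -0.38. Of all genes tested, 11.6% were called higher and 5.88% lower, against 9.09% and 4.55% of the 22, so the counts lie near the background and are no result about the family. Among the 18 members with an average abundance of at least 4 log2 CPM (log2 of counts scaled to library size, averaged by the authors across libraries), 1 was higher and 1 lower, and the background there was 6.55% higher and 8.18% lower. The median log2 fold change of the 22 was -0.03 and that of all genes -0.0009 in the authors' deposited table. A log2 fold change smaller than 0.25 in size was found for 18 of the 22, 81.8%, and for 60.6% of all genes. An unadjusted p under 0.05 was found for 5 of the 22, 22.7%, and for 29.7% of all genes. In RNA of whole meristems and buds, fewer cells of a type and less RNA per cell cannot be told apart.

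**Figure D1:**
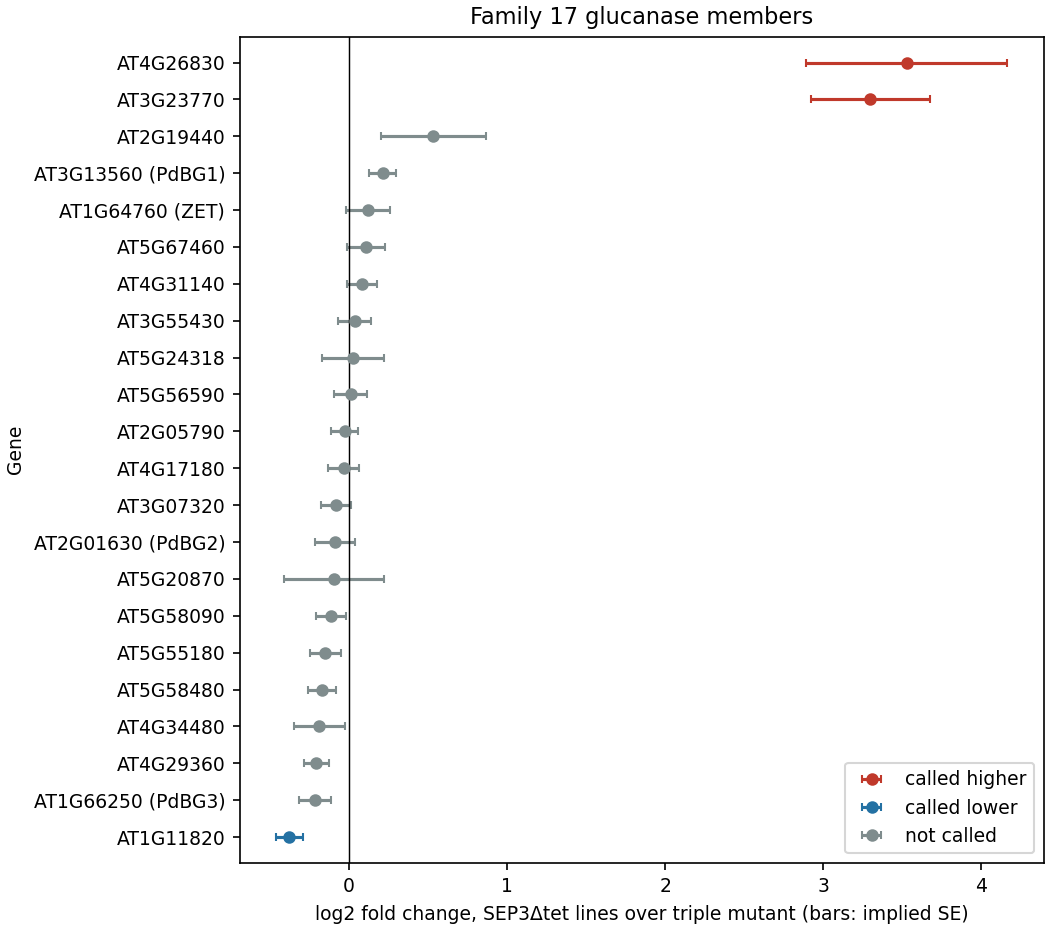
Plot of the log2 fold change (SEP3Δtet lines over triple mutant, x axis) of the 22 members (y axis), ordered by value, with the implied SE as bars and the colour giving the call at an adjusted p of 0.05. AT4G26830 (3.53) and AT3G23770 (3.30) stand apart, and the 19 genes not called lie between -0.21 and 0.53.

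AT3G23770 was the abundant one of the 2 higher genes. It was 9.83-fold higher in the SEP3Δtet lines than in the triple mutant by the authors' deposited table (log2 value 3.30, implied SE 0.38, F = 76.0, adjusted p = 5.8e-04 by edgeR), with an average of 6.98 log2 CPM. The gene occupies bases 8565494 to 8567496 of chromosome 3 in TAIR10.1, plus strand, and has 3 coding exons and 476 codons. The annotation notes its expression in leaf whorls, sepals and flowers. The annotation's best match to it is the excluded A6, a tapetum-expressed anther gene of the family, at 74.6% protein identity. A6 had a log2 fold change of 3.50 (implied SE 0.20, adjusted p = 7.9e-07 by edgeR) in the authors' deposited table, so both genes of this pair were called higher. The longest identical run between the coding sequences of AT3G23770 and A6 was 30 bp, and reads were 150 bp long. Whether the genes shared reads was not tested.

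AT4G26830 rose as well, from a lower abundance. It was 11.5-fold higher in the SEP3Δtet lines by the authors' deposited table (log2 value 3.53, implied SE 0.64, F = 30.7, adjusted p = 0.0047 by edgeR), with an average of 2.89 log2 CPM. It occupies bases 13494572 to 13496738 of chromosome 4, minus strand, with 2 coding exons and 459 codons. Its implied SE is the widest of the 22, whose median is 0.10, and that of AT3G23770 (0.38) is the next widest. The 2 higher genes are not close relatives, with 35.4% protein identity.

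AT1G11820 was the 1 gene that fell. Its log2 fold change was -0.38 (implied SE 0.08, F = 20.6, adjusted p = 0.0078 by edgeR) in the authors' deposited table, a level 0.770 times that of the triple mutant. It occupies bases 3991027 to 3993707 of chromosome 1, minus strand, has 4 coding exons, and averaged 6.58 log2 CPM. Recentring on genes of at least 4 log2 CPM, whose median was -0.04, left its direction as it was. The next gene outside the threshold was AT4G29360, with a log2 fold change of -0.21 and an adjusted p of 0.098 by edgeR in the authors' deposited table.

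**Figure D2:**
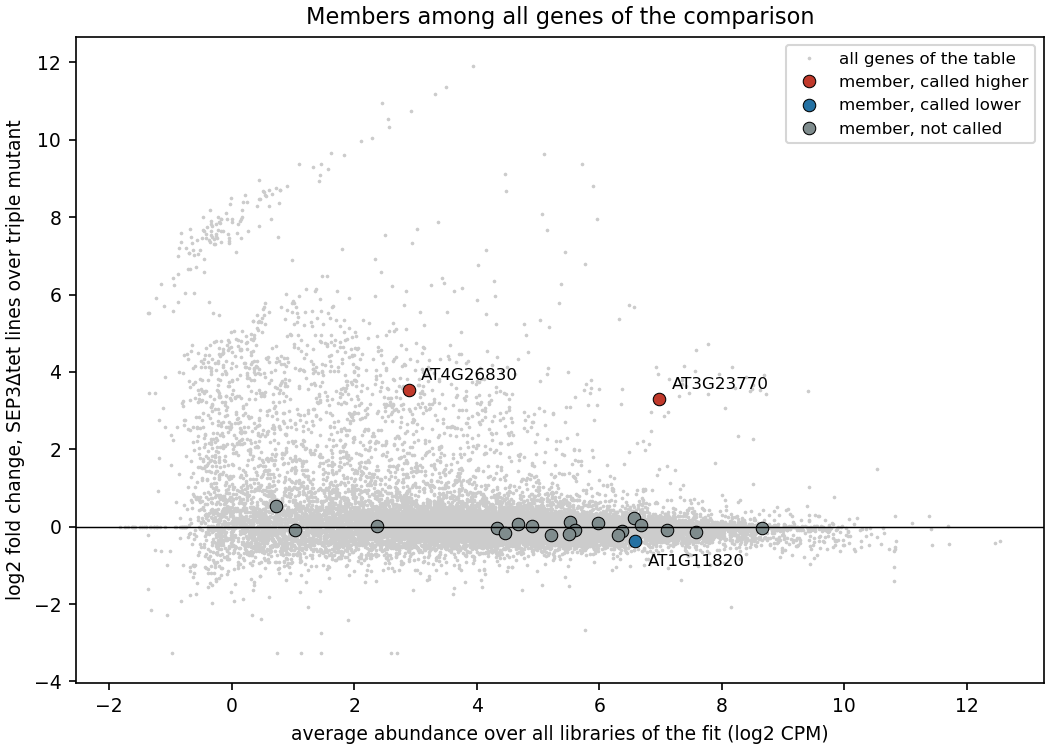
Plot of the log2 fold change (SEP3Δtet lines over triple mutant, y axis) against average abundance (log2 CPM, x axis) for all 19777 genes (grey points), with the 22 members as large points coloured by call. The 2 higher members lie at 2.89 and 6.98 log2 CPM, above the band around 0 that holds the other 20.

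Among the 22, the closest members to the 2 higher genes were not called. A6, left out by the rule, is closer to AT3G23770 (74.6% identity) and was called higher. AT5G55180 shares 74.6% of its aligned residues with AT4G26830 and had a log2 fold change of -0.15 (implied SE 0.10, adjusted p = 0.364 by edgeR) in the authors' deposited table. It was also far more abundant than AT4G26830, by 4.70 log2 CPM in the authors' averages. AT2G05790, with 62.2% identity to AT4G26830, stood at -0.03 (adjusted p = 0.877 by edgeR) in the authors' deposited table and was the most abundant of the 22 per kilobase of transcript. AT3G07320, the member nearest to AT3G23770 at 53.9% identity, stood at -0.08 (adjusted p = 0.630 by edgeR) in the authors' deposited table. The difference between relatives was not tested, because the table gives no value per library. No 2 members lie within 10000 bp of each other; the nearest neighbours are 133620 bp apart.

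**Figure D3:**
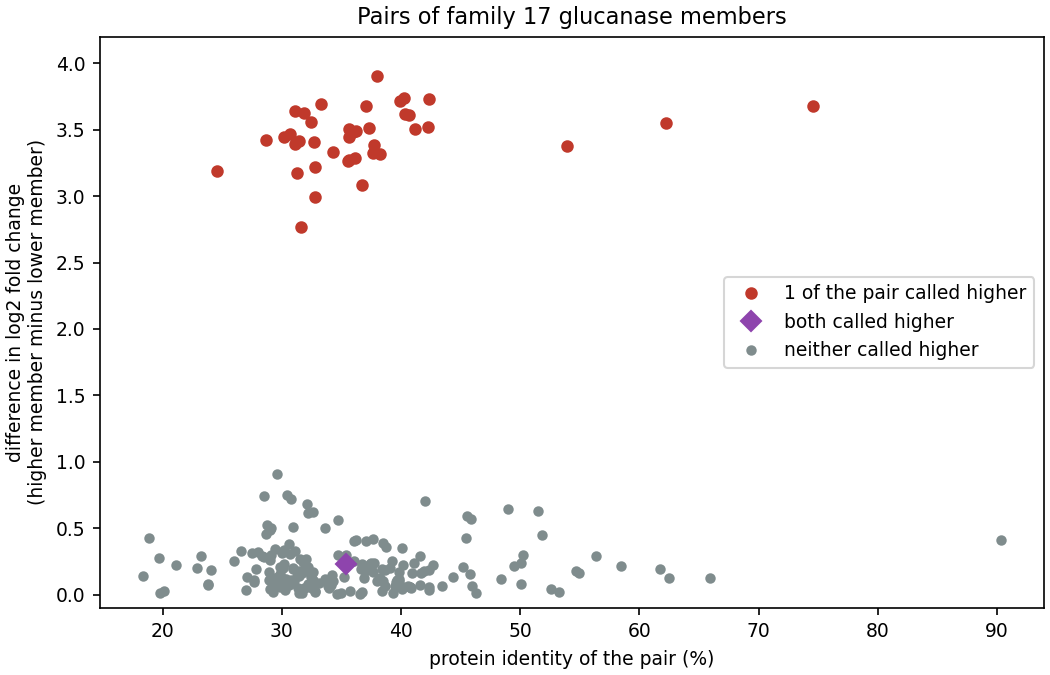
Difference in log2 fold change within each of the 231 pairs of members (y axis, the higher value minus the lower one) against the protein identity of the pair (x axis, %). The 40 pairs with 1 gene called higher differ by 2.77 to 3.90, with identities up to 74.6%, while the 190 pairs with neither called higher differ by at most 0.91; these ranges follow from the values of the 2 higher genes.

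Promoters were compared because AT4G26830 and AT5G55180 are relatives with unlike values. The CArG box, the known binding element of MADS-domain proteins, was searched on both strands in the 300 bases from 250 before to 50 after the annotated start. It was in 3.05% of 27443 promoters of protein-coding genes and in 1 of the 22 members, AT5G55180. The 3 windows below (TAIR10.1, 5′ to 3′ on the gene's strand) are those of the 2 higher genes and of AT5G55180, with the CArG box in capitals.
AT3G23770 (chr3:8565244-8565543, plus strand): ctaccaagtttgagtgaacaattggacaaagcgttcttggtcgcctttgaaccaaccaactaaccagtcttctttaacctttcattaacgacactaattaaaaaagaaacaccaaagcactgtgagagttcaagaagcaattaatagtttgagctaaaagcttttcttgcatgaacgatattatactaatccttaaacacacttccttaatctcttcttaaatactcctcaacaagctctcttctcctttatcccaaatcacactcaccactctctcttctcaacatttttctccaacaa
AT4G26830 (chr4:13496689-13496988, minus strand): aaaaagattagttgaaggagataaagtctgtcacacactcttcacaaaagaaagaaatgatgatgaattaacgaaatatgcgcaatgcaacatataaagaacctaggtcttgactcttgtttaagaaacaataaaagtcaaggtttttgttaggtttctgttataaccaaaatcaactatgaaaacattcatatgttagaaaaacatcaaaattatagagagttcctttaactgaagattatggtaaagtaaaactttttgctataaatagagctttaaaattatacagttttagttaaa
AT5G55180 (chr5:22388271-22388570, plus strand): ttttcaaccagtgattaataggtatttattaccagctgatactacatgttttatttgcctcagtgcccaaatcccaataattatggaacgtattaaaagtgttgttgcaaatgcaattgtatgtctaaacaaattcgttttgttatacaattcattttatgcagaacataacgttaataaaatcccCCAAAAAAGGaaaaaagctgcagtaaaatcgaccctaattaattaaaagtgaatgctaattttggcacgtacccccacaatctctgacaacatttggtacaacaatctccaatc
The box of AT5G55180 begins 64 bases before the annotated start. A match is a description of these letters, and windows without one say only that the letters are not in these 300 bases.

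The members known from plasmodesmata, PdBG1 to PdBG3, were not called. BG_PPAP (AT5G42100), which falls outside the rule, is given under the closing observations. PdBG1 (AT3G13560) and PdBG2 (AT2G01630) encode plasma membrane glucanases that reduce callose at plasmodesmata, and PdBG3 (AT1G66250) is another gene of that group. PdBG1 had a log2 fold change of 0.21 (implied SE 0.08, unadjusted p = 0.027, adjusted p = 0.111 by edgeR) in the authors' deposited table. PdBG2 stood at -0.09 (implied SE 0.13, adjusted p = 0.696 by edgeR) and PdBG3 at -0.21 (implied SE 0.10, adjusted p = 0.179 by edgeR) in the authors' deposited table. PdBG2 and PdBG3 are the closest of them, at 65.9% protein identity.

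By the annotation, 11 of the 22 products are anchored to the membrane. None of the 11 was called by the authors' edgeR test, and their log2 fold changes ran from -0.21 to 0.53 in the authors' deposited table. The 2 higher genes and the lower one were all among the 11 without that note, whose values ran from -0.38 to 3.53 in the authors' deposited table. With 11.6% of all genes called higher and 5.88% lower, few calls would fall among 11 genes at the background rate, and whether the anchored and the other genes differ was not tested.

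ZERZAUST (AT1G64760), described as an atypical glucanase needed for cell wall organisation and tissue shape, stood at 0.12 (implied SE 0.14, adjusted p = 0.630 by edgeR) in the authors' deposited table. Its near copy AT2G19440, at 90.3% protein identity, had a log2 fold change of 0.53 (implied SE 0.33, adjusted p = 0.326 by edgeR) at an average of 0.72 log2 CPM, the lowest of the 22 in the authors' deposited table. The longest identical run between the coding sequences of AT1G64760 and AT2G19440 was 44 bp, and reads were 150 bp long. How the authors treated reads shared between genes is not stated, and whether these near copies shared reads was not tested.

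The 3 genes without the full active-site motif were not called. AT4G34480 stood at -0.19 (adjusted p = 0.489), AT5G58480 at -0.17 (adjusted p = 0.236) and AT5G67460 at 0.11 (adjusted p = 0.615) by edgeR in the authors' deposited table. AT5G67460 also encodes the shortest of the proteins, with 380 residues against a longest of 544. The other 9 genes that were not called ran from -0.21 (AT4G29360) to 0.08 (AT4G31140), with adjusted p of at least 0.098 by edgeR in the authors' deposited table. They are AT3G55430, AT5G24318, AT5G56590, AT2G05790, AT4G17180, AT5G20870 and AT5G58090 besides those named. For the 19 uncalled genes the implied SE ran from 0.08 to 0.33, so a missed call does not show an equal level.

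Abundance differed widely within the family. Per kilobase of the longest annotated transcript, the average over all libraries ran from -0.03 log2 CPM per kb (AT2G19440) to 7.63 (AT2G05790). AT5G55180 came next with 6.65, followed by AT3G23770 and AT3G07320, both with 6.13, values that rest on the authors' deposited log2 CPM. AT4G26830 stood at 1.98 and was number 19 in that order. These averages pool both genotypes, and the spread between libraries is not known, so no neighbours in the order are told apart.

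Among the enzymes that make callose, 1 of 11 measured synthases was higher, 0 were lower and 10 were not called. With 11.6% of all genes called higher and 5.88% lower, these counts are no result about the synthases. The higher gene was CALS5, the synthase of the callose wall around meiocytes and tetrads, with a log2 fold change of 1.92 (implied SE 0.26, adjusted p = 7.1e-04 by edgeR) in the authors' deposited table. The other 10 ran from -0.34 (CALS8) to 0.002 (CALS7) in the authors' deposited table. CALS9 (-0.21) and CALS10 (-0.18), which are needed for pollen development and cell division, were not called, nor was CALS12 (-0.19), the synthase of wound and pathogen callose, in the authors' deposited table. CALS3 (-0.31), which acts at plasmodesmata, CALS1 (-0.04), CALS2 (-0.24), CALS6 (-0.18) and CALS11 (-0.32) complete the measured set in the authors' deposited table. The median of the 11 was -0.19, against -0.0009 for all genes.

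Proteins that bind callose or sit at plasmodesmata showed 2 lower genes, 0 higher and 10 not called, of 12 measured. Of all genes, 11.6% were called higher and 5.88% lower. Among genes of at least 4 log2 CPM, where both lower genes lie, 8.18% were lower. Whether the 12 differ from those shares was not tested. At an adjusted p of 0.01, 1 of the 12 was lower, and at a minimum log2 fold change of 1, 0 were. The lower ones were PDCB3 (log2 fold change -0.54, implied SE 0.09, adjusted p = 0.0011 by edgeR) and PDCB4 (-0.30, implied SE 0.09, adjusted p = 0.035 by edgeR) in the authors' deposited table, both encoding callose-binding proteins with an X8 domain and no glucanase domain. The 5 PDCB genes had values from -0.54 to -0.19 in the authors' deposited table. PDLP5, a plasmodesmata-located protein that promotes callose deposition, had a value of 0.74 (implied SE 0.26, adjusted p = 0.067 by edgeR) in the authors' deposited table. The median of the 12 was -0.20. Of 5 measured genes of salicylate defence, the response that includes PR2, 0 were higher and 4 were not called, with a median of -0.37. NPR1 was lower (-0.44, adjusted p = 0.016 by edgeR, in the authors' deposited table). Whether these defence genes differ from the shares among all genes, 11.6% higher and 5.88% lower, was not tested.

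**Figure D4:**
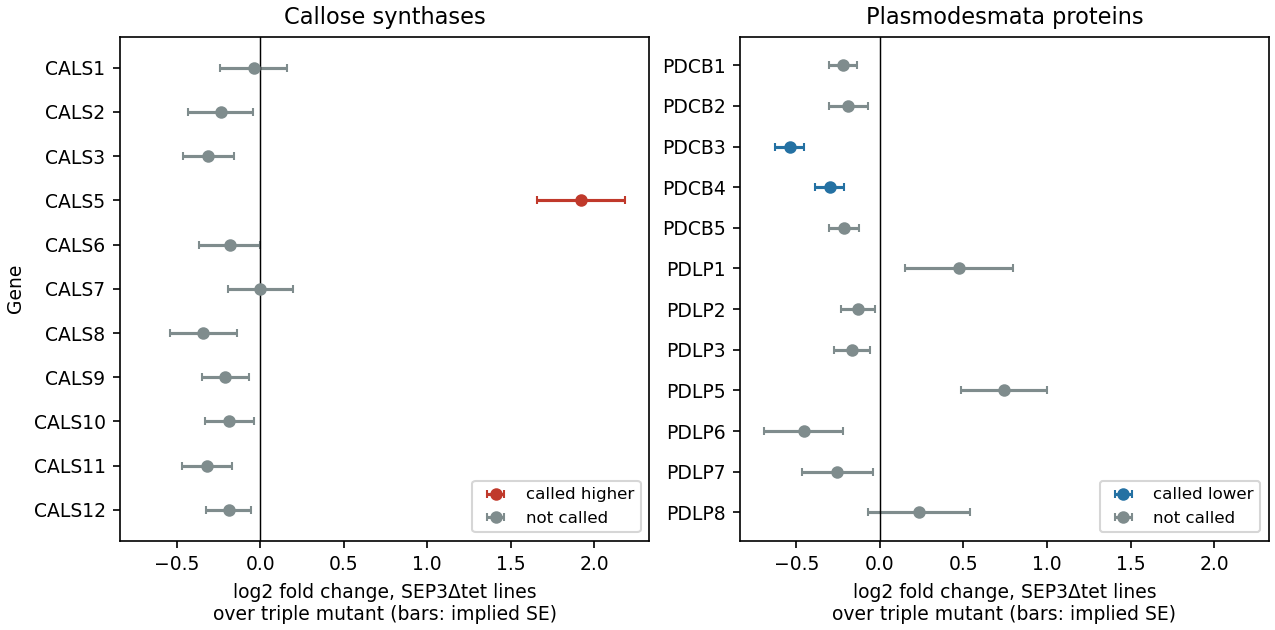
Plot of the log2 fold change (SEP3Δtet lines over triple mutant, x axes) of 11 callose synthase genes (left) and 12 genes of plasmodesmata proteins (right), with the implied SE as bars and the colour giving the call at an adjusted p of 0.05. CALS5 (1.92) is the 1 gene called higher, and PDCB3 (-0.54) and PDCB4 (-0.30) are called lower.

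Markers of tapetum, pollen, carpel and ovule were read from the same comparison, in lists chosen with earlier results of these data known. Of all genes, 11.6% were called higher. All 10 tapetum markers were higher, with log2 fold changes from 2.32 to 4.13 and a median of 3.63 in the authors' deposited table. The 4 with the smallest p were AMS (3.47) and MYB80 (3.82), transcription factors of tapetum development, and TKPR1 (3.58) and ACOS5 (3.92), enzymes of pollen wall sporopollenin, in the authors' deposited table. Of 3 measured pollen markers, ACT12 was higher (9.31, adjusted p = 0.016 by edgeR) and VGD1 (7.48) and ACT11 (0.19) were not called in the authors' deposited table. Of 5 measured carpel and ovule markers, STK (6.09), SHP2 (2.58) and SHP1 (1.53) were higher, and CRC (0.24) and INO (4.69) were not called, in the authors' deposited table. The values of ACT12, VGD1 and INO had implied SE of 2.04, 2.70 and 2.76 and give no bound on the fold. The part of tapetum and other anther or carpel tissue in the values of AT3G23770, AT4G26830 and CALS5 was not tested.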

How the data were processed

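Per the submitters' processing notes, the authors used STAR, featureCounts and edgeR with the TAIR10 genome. Tool versions, the filter on low counts, the use of strand and the number of triple mutant libraries were not stated. The authors deposited 1 table of 19777 genes; per the file headers it gives log2 fold change, log2 CPM, F (used here as a score), p-value and adjusted p-value. The deposited adjusted values match Benjamini-Hochberg values recomputed here across the whole table, to within 1.8e-15. No fit was made here, since the file has no values per library. Depth is unknown, and the authors' p-values cover only variation among their libraries.

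A gene was called at an adjusted p under 0.05 and by its sign. The implied SE is approximate because the test moderates the variance. Coordinates, coding sequences and domain notes came from RefSeq's TAIR10.1 genome and annotation, in which all 22 identifiers were found. Proteins were aligned with MAFFT 7.526; identity is the share of aligned residues that match. The CArG box has 6 central A or T bases and the same form on both strands, so 1 scan covers both. The code was tested on simulated data.

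The naming rule took called members, members next to the threshold, known plasmodesmal genes and ZERZAUST, near copies, A6, every callose synthase, and up to 4 called genes of each list by smallest p. The other members are named so that each is accounted for; the uncalled list genes, SEP3, and the genes under the closing observations were named after their values were seen. The members and lists were chosen with earlier results of these data known. Alternatives were an adjusted p of 0.01, Bonferroni adjustment, a minimum log2 fold change of 1, a minimum of 1 log2 CPM, recentring on genes of at least 4 log2 CPM, A6 included, identifiers with a suffix left out, near copies reduced, and the whole annotated family.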

Additional observations from a re-analysis of the deposited data

How the results depend on the processing

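No paired analysis was possible because the table gives no value per library; for the same reason the fits that leave out each line were not run. All 22 members kept their call at an adjusted p of 0.01, as did the 21 left among genes of at least 1 log2 CPM. Recentring shifted the fold changes and kept the deposited p-values, so it could change a call only through the sign of a called gene. No called member changed sign. Recentring turned the sign of the uncalled AT2G05790 (0.01) and AT4G17180 (0.009), and of the members' median (0.012), and put CALS1 at 0.003. With a minimum log2 fold change of 1, 0 members were lower and 2 higher, and PDCB3, PDCB4 and NPR1 lost their calls. At an adjusted p of 0.01, PDCB4, NPR1 and ACT12 lost theirs. By Bonferroni adjustment over all genes, 0 were higher and 0 lower; AT3G23770 then had an adjusted p of 0.459. The Bonferroni setting also left 5 of 10 tapetum markers, 1 of 5 carpel and ovule markers, 0 pollen markers and 0 callose synthases higher, and 0 plasmodesmata and 0 defence genes lower. With A6 included, 3 were higher. Over all 33 measured genes annotated with the family 17 domain, an alternative added after seeing the data, 5 were higher and 2 lower, with a median log2 fold change of 0.009, against -0.03 for the 22. The shares among all genes were 11.6% higher and 5.88% lower, and a difference from them was not tested. Depth per library is unknown. Among uncalled members the implied SE was up to 0.33, at the lowest abundance.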

Other observations

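Outside the rule, 10 measured genes carry the family 17 domain but no X8 domain, and this set was chosen after its values were seen. At an adjusted p of 0.05 by edgeR, 2 of them rose, 1 fell and 7 missed the threshold. Of all genes, 11.6% were called higher and 5.88% lower, and whether this set differs from those shares was not tested. AT3G55780 was 6.35-fold higher in the SEP3Δtet lines by the authors' deposited table (log2 value 2.67, implied SE 0.20, adjusted p = 3.4e-06), and AT3G61810 was 3.74-fold higher (1.90, implied SE 0.16, adjusted p = 7.9e-06). Both have larger F statistics (172 and 135) than any of the 22 X8-bearing members, whose largest is 76.0, in the authors' deposited table. A6, which also bears X8 but is outside the 22, had a larger F than both (300). AT5G42720, annotated as membrane-anchored, was lower (log2 fold change -0.51, implied SE 0.12, adjusted p = 0.011 by edgeR) in the authors' deposited table. BG_PPAP (AT5G42100), a glucanase known from plasmodesmata, had a value of -0.35 (implied SE 0.12, adjusted p = 0.057 by edgeR) in the authors' deposited table.

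AT1G68200, which encodes the zinc finger protein CDM1 known to affect callose around microspores, was 6.71-fold higher in the SEP3Δtet lines by the authors' deposited table (log2 value 2.75, implied SE 0.21, adjusted p = 3.9e-06 by edgeR).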
